A study of Mus musculus with 2 samples.

Results

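The 39 genes described here act in the cell division cycle, and were measured in cardiac T cells of mice on day 7 after an infarct. Of 55357 genes in the count files, 14 were taken as S-phase genes, 20 as mitotic genes and 5 as broadly expressed genes that also serve division, each matched by its symbol. The series holds 1 droplet single-cell RNA library of wild-type hearts from mice given anti-PD1, an antibody against the inhibitory T cell receptor PD-1, and 1 from mice given anti-IgG, the control antibody. Every heart was infarcted, and the strain, the age, the dose and the number of mice behind each library are not given in the sources used here. The design text speaks of sorted T cells, while the protocols record enzymatic digestion of minced hearts, lysis of red cells and depletion of dead cells, and no sort.

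A dividing T cell first licenses its replication origins with the Mcm helicase, then copies its DNA with the sliding clamp Pcna while ribonucleotide reductase, thymidylate synthase and thymidine kinase supply nucleotides. Later genes follow: cyclins A and B with Cdk1 start mitosis, kinetochore proteins tie chromosomes to the spindle, and Cdc20 and Ube2c act with the ubiquitin ligase that ends mitosis. Many early genes are regulated by E2F factors, and many late genes by the DREAM and MuvB complexes through a CHR element and nearby CCAAT boxes.

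T cells were taken as cells with a Cd3 transcript and few transcripts of other lineages. They numbered 4997 of 5835 kept cells in the anti-PD1 library and 3758 of 4309 in the anti-IgG library, with medians of 3738 and 3957 UMIs (unique molecular identifiers, each standing for a captured RNA molecule) and totals of 22246030 and 17691278 UMIs. The libraries shared 46 cell barcodes. Haemoglobin and other red cell genes stood at 0.225 CPM (UMIs of the genes per 1000000 UMIs of the same cells) in anti-PD1 and 96.5 CPM in anti-IgG T cells, and heart muscle genes at 3.46 and 3.73 CPM. The part of these gaps in the results was not tested. With 1 library for each antibody no test between the antibodies is possible, and every ratio given here is anti-PD1 over anti-IgG with an exact 95% interval for counting error only, which is too narrow where a gene's UMIs lie together in few cells.

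The promoters of S-phase and mitotic genes differ in their letters, and 6 are printed: Mcm6 and Rrm1 for the early type, Mki67, Top2a and Kif11 for the late type, and Cks2 because it had the highest ratio of the 39 genes. Each is the 120 bases before the RefSeq start (build GRCm38.p6), read 5′ to 3′ along the gene's strand, in a stretch that holds no gene of the GENCODE annotation. Capitals mark 3 kinds of motif, searched on both strands. The CHR element was taken as TTTGAA or TTTAAA, the CCAAT box by its name, and the E2F site as TTCCCGC or TTGGCGC or TTCGCGC or TTGCCGC.
Mcm6 (chr1:128359706-128359825, minus strand): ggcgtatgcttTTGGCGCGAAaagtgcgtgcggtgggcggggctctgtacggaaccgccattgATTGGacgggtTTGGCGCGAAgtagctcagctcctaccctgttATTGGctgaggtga
Rrm1 (chr7:102441575-102441694, plus strand): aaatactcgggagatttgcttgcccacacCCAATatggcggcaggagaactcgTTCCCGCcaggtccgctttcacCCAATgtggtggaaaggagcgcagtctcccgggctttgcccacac
Mki67 (chr7:135716380-135716499, minus strand): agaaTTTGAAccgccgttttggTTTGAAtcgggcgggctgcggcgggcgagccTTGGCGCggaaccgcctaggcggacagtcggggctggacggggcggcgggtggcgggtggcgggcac
Top2a (chr11:99024190-99024309, minus strand): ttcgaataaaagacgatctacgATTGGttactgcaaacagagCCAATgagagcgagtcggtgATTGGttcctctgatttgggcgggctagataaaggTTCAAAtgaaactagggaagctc
Kif11 (chr19:37376262-37376381, plus strand): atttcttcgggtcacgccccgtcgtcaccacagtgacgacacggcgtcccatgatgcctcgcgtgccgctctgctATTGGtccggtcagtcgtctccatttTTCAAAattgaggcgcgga
Cks2 (chr13:51645112-51645231, plus strand): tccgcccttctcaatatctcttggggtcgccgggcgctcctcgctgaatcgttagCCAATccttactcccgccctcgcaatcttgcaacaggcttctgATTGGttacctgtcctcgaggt

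The printed early promoters show CCAAT and E2F letters and no CHR letters, the printed late ones show CHR letters, and that of Cks2 shows CCAAT boxes only. They are examples of a type, and stretches of the same length that are not printed differ. Mcm2 had CHR letters and no CCAAT or E2F letters, and Mcm3, Mcm5 and Tyms had no E2F letters. Of the mitotic genes, Birc5, Ccnb2 and Cenpf had no CHR letters there. Over the 250 bases before the start, 12 of the 16 mitotic promoters with a RefSeq entry held CHR letters (75%), as did 4 of 14 S-phase promoters (28.6%) and 25.2% of all 32851 promoters in the table. CCAAT was in 87.5% of mitotic, 71.4% of S-phase and 33.8% of all promoters. The E2F letters had the other order, with 18.8% of mitotic, 42.9% of S-phase and 7.89% of all promoters. CHR and CCAAT together occurred in 68.8% of mitotic promoters, 14.3% of S-phase promoters and 8.78% of all promoters. Cks2 and Cenpe held CCAAT without CHR letters, and Cenpa and Cenpf held both. In the members' windows 1 overlap was found between letters of different kinds. A match is a description of letters and not a bound site.

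Most mitotic genes were concentrated in few cells in both libraries, and most S-phase genes were spread more widely. At least 3 different mitotic genes were seen in 307 anti-PD1 T cells (6.14%, 95% exact interval 5.49 to 6.85) and 205 anti-IgG T cells (5.46%, 4.75 to 6.23), a ratio of 1.13 (0.94 to 1.35). At least 3 S-phase genes were seen in 18.8% (17.7 to 19.9) and 20.6% (19.3 to 22.0) of them, a ratio of 0.911 (0.828 to 1.003). Both intervals of the ratio include 1, which depends on the cut. The mitotic ratio was 1.27 (1.13 to 1.42) at 2 genes and 0.936 (0.739 to 1.19) at 5 genes. The S-phase ratio was 0.961 (0.899 to 1.03) at 2 genes and 0.836 (0.709 to 0.987) at 5 genes. In B cells at least 3 S-phase genes were seen in 8.09% (11 of 136) of anti-PD1 and 0 of 56 anti-IgG cells, at medians of 2380.5 and 2717.5 UMIs. Thinned to 2000 UMIs, the S-phase share was 6.55% in anti-PD1 and 7.14% in anti-IgG T cells, against 6.80% (7 of 103) and 0 of 48 B cells. The mitotic share was then 3.48% and 3.36%, against 0 of the same B cells. A count of 0 allows up to 3.52% of 103 and 7.40% of 48 cells by the exact interval, so at this depth none of these 4 shares in T cells is read as above background. The cut at 3 genes divides a continuous range: 106 anti-PD1 and 56 anti-IgG cells had exactly 3 mitotic genes, and 515 and 282 had exactly 2. The shares also follow depth, since cells with at least 3 mitotic genes had medians of 8563 and 8859 UMIs against 3317 and 3634 in cells with none.

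**Figure D1:**
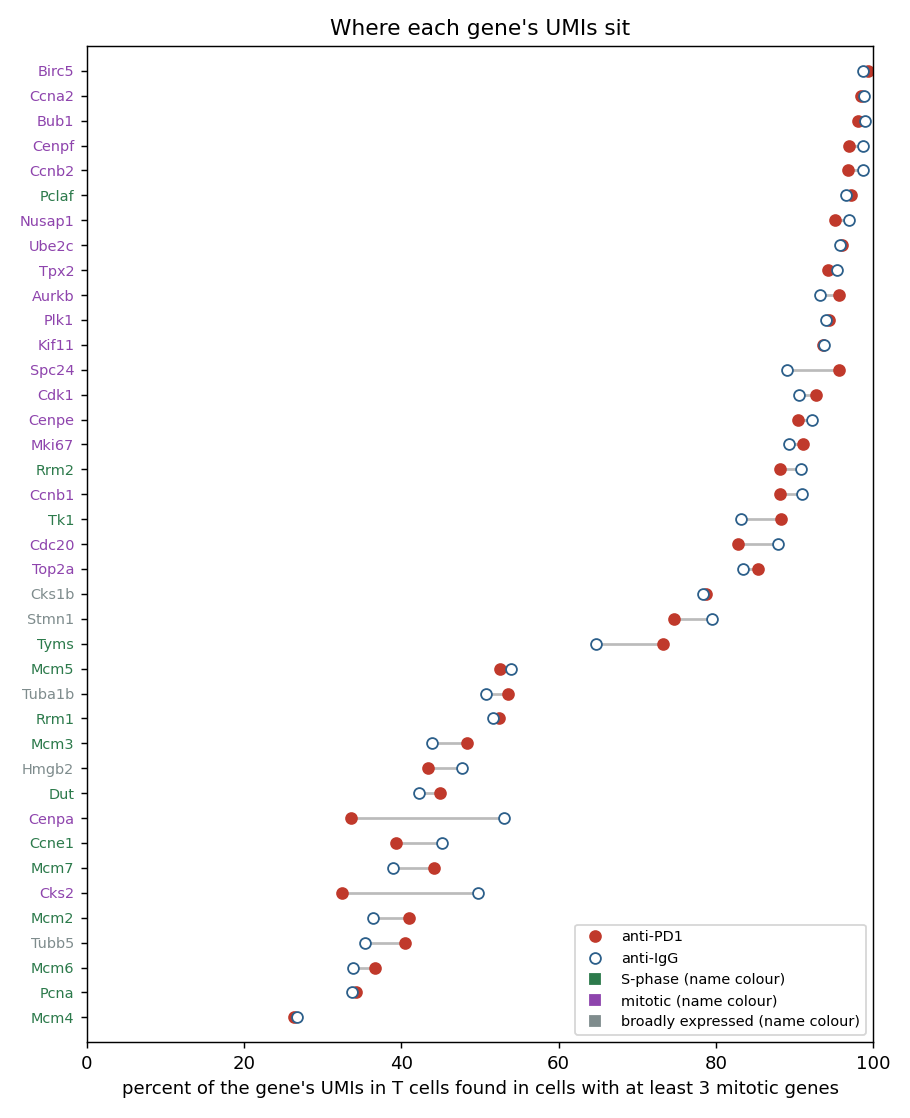
For each of the 39 genes, the percent of its UMIs in T cells that lay in cells with at least 3 mitotic genes, in anti-PD1 (filled) and anti-IgG (open) libraries, with names coloured by set. Birc5 is at the top near 99% in both libraries, Mcm4 is at the bottom at 26.4% and 26.7%, and Cks2 and Cenpa have the widest gaps between the libraries.

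Birc5 (survivin, of the chromosomal passenger complex), Ccna2 (cyclin A2) and Bub1 (a spindle checkpoint kinase) were the genes most concentrated in these cells. Birc5 had 99.3% of its UMIs there in anti-PD1 and 98.7% in anti-IgG T cells, Ccna2 98.4% and 98.9%, and Bub1 98.02% and 99.0%. These 3 genes belong to the set that defines the cells, so the order is a description. The origin-licensing subunits Mcm4 and Mcm6 and the clamp Pcna were the least concentrated: Mcm4 had 26.4% and 26.7%, Pcna 34.2% and 33.7%, and Mcm6 36.7% and 33.9%. Pclaf, a Pcna-binding protein grouped with the S-phase genes, had 97.2% and 96.5%, and thymidine kinase Tk1 88.3% and 83.2%, so the S-phase set itself runs over nearly the whole range. Cks2, a small Cdk-binding subunit, and Cenpa, the histone H3 variant of centromeres, stood apart from the other mitotic genes: Cks2 had 32.4% of its UMIs in these cells in anti-PD1 and 49.7% in anti-IgG, and Cenpa 33.6% and 53.1%.

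Genes seen in cells without division need a measure of background. With every cell thinned to 2000 UMIs, B cells (103 anti-PD1 and 48 anti-IgG cells, with medians of 2784 and 3039 UMIs before thinning, against 3916 and 4113 in T cells) had no UMI of 17 and 24 of the 39 genes. A count of 0 allows a share of up to 2.91% of anti-PD1 and 6.25% of anti-IgG B cells at 3 counts, and up to 3.52% and 7.40% by the exact interval. Mki67, the proliferation marker of mitotic chromosomes, was seen in 4.92% of anti-PD1 and 5.36% of anti-IgG T cells. The shares in B cells were 1.94% and 2.08%, and without thinning those in T cells were 7.78% and 9.15%. Pcna, Mcm5, Cdc20, Cenpa and Aurkb in anti-PD1 and Mcm5, Cdc20 and Tuba1b in anti-IgG were seen in no larger share of T cells than of B cells. Their shares over all T cells are not read as expression above background. For Aurkb this rests on 1 and for Cdc20 on 2 of the 103 anti-PD1 B cells. Without thinning, Aurkb was seen in 58.3% and Cdc20 in 53.7% of anti-PD1 T cells with at least 5 other mitotic genes. In the other anti-PD1 T cells the shares were 0.310% and 1.16%. The B cells were also too few to place most other genes. Only Cks2 in anti-PD1, and Mcm3, Mcm6 and Hmgb2 in anti-IgG, were seen in a share of T cells above the exact upper limit for B cells, and none of the 17 genes at 0 in anti-PD1 B cells was above what that 0 allows.

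Between the libraries the S-phase and mitotic genes as sums hardly differed, while single mitotic genes lay on both sides. Summed over all T cells, the 14 S-phase genes stood at 698 CPM in anti-PD1 and 720 CPM in anti-IgG T cells, a ratio of 0.969 (0.946 to 0.992), and the 20 mitotic genes at 661 and 635 CPM, a ratio of 1.04 (1.02 to 1.07). Of the 39 genes, 2 were at least 1.5-fold higher with an interval above 1, Cks2 and Cenpa, where the same rule took 5.85% of all 11905 genes with at least 50 UMIs. At 1.5-fold lower or beyond stood 2 genes, Cenpe and Cenpf, where the rule took 9.06% of all genes. By the interval alone 4 members lay above 1 (17.8% of all genes) and 11 below 1 (35.3%), and 24 included 1. The median log2 ratio was -0.07 over the members and -0.10 over all genes, so the set as a whole lay near the background in both directions.

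**Figure D2:**
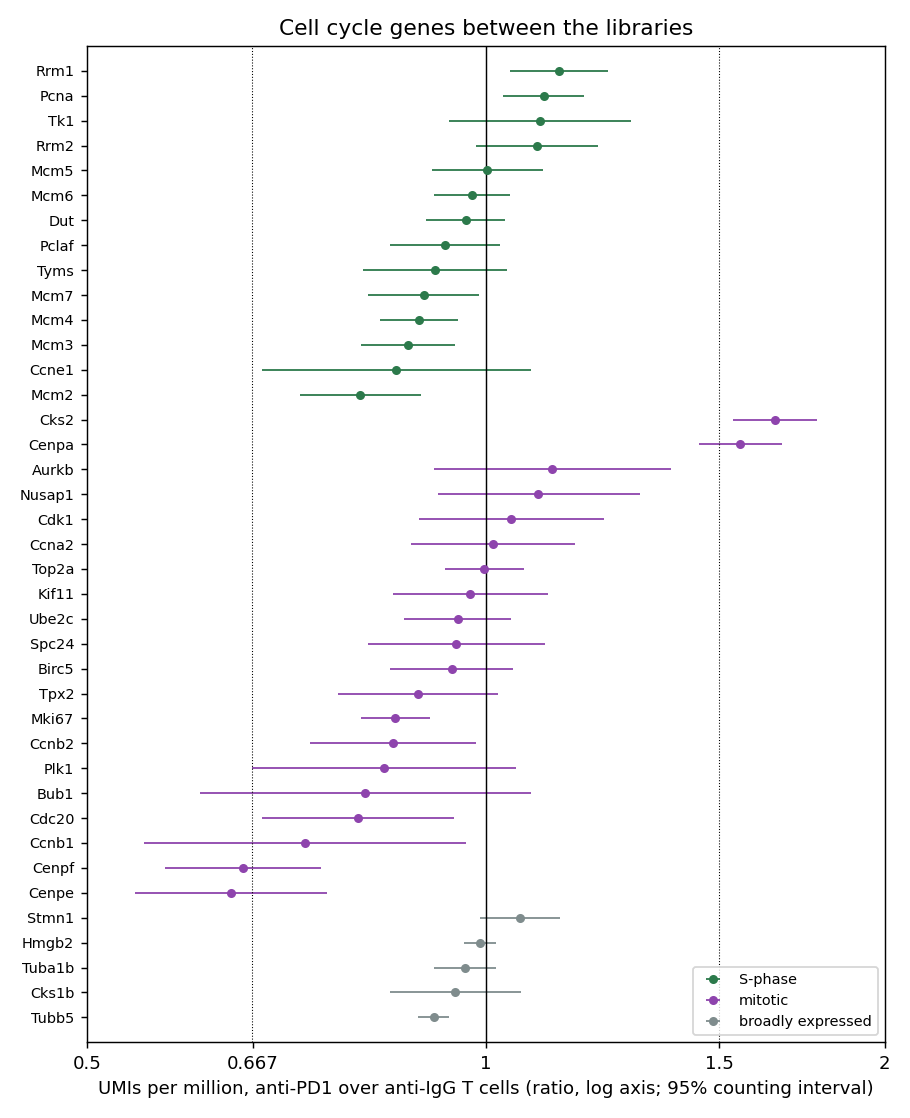
Ratio of CPM, anti-PD1 over anti-IgG T cells (log axis), for the 39 genes by set, with 95% counting intervals; dotted lines mark 1.5-fold either way. Cks2 at 1.65 and Cenpa at 1.56 lie above the upper line, Cenpe at 0.642 and Cenpf at 0.656 below the lower one, and the other 35 genes between.

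Among the replication genes, 4 helicase subunits had intervals below 1, and the clamp Pcna and the reductase subunit Rrm1 had intervals above 1; the roles were not compared by a test. Mcm2 had 32.4 CPM in anti-PD1 and 40.3 CPM in anti-IgG T cells, a ratio of 0.804 (0.724 to 0.893), which was the lowest of the 14 S-phase genes. Mcm3 had 55.5 and 63.5 CPM (0.873, 0.805 to 0.947), Mcm4 81.3 and 91.3 CPM (0.890, 0.832 to 0.953) and Mcm7 40.5 and 45.1 CPM (0.898, 0.815 to 0.989), while Mcm5 had 43.1 and 43.0 CPM (1.00, 0.910 to 1.10) and Mcm6 90.2 and 92.4 CPM (0.976, 0.914 to 1.04). The 6 subunits form 1 ring in equal parts, and 4 of their 6 intervals lay below 1, where 35.3% of all 11905 genes did. These were the only such intervals among the 14 S-phase genes. The median log2 ratio of all genes was itself below 0, at -0.10, so nothing is read from the count for the ring. Pcna had 83.7 and 75.7 CPM (1.11, 1.03 to 1.19) and Rrm1, the large subunit of ribonucleotide reductase, 60.0 and 52.9 CPM (1.14, 1.04 to 1.24), the only 2 S-phase genes with intervals above 1. The S-phase set held no member past 1.5-fold; Rrm2, Tyms, Tk1, Dut, Pclaf and Ccne1 (cyclin E1) had ratios of 0.856 to 1.10 with intervals that include 1. Mcm7 and Tk1 overlap other annotated genes and use of strand in counting is not stated, so their values are uncertain. The same holds for Pclaf, Ccna2, Cdc20, Ube2c and Nusap1.

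Cks2 and Cenpa were higher in anti-PD1 T cells outside the cells rich in mitotic genes, and inside those cells both intervals included 1. Cks2 had 2215 UMIs (99.6 CPM) in anti-PD1 and 1066 UMIs (60.3 CPM) in anti-IgG T cells, a ratio of 1.65 (1.54 to 1.78). Cenpa had 2238 UMIs (101 CPM) and 1144 UMIs (64.7 CPM), a ratio of 1.56 (1.45 to 1.67). T cells with at least 5 mitotic genes, called mitotic-dense here, numbered 163 in anti-PD1 and 131 in anti-IgG. For a mitotic gene the class was formed from the other 19, so that the gene did not choose its own cells. Outside that class Cks2 had 81.0 and 36.7 CPM, a ratio of 2.21 (2.01 to 2.43), and inside it 331 and 337 CPM, a ratio of 0.981 (0.865 to 1.11). Cenpa had 81.2 and 37.3 CPM outside (2.18, 1.98 to 2.39) and 339 and 378 CPM inside (0.896, 0.795 to 1.01).

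No other member was called higher outside the class. Ccnb2 (1.54), Ccna2 (1.58) and Plk1 (1.58) had ratios above 1.5 there, from too few UMIs or with an interval that includes 1. Of all genes, 6.05% of the 11631 with enough UMIs there were called higher and 9.03% lower, and 0 members were called lower. Of the 39 genes, 31 reached 50 UMIs there, and 12 of these were mitotic genes. Most Cks2 cells held a single UMI: 61.5% of the 1163 anti-PD1 and 66.3% of the 549 anti-IgG T cells with the gene. For Cenpa these were 69.6% of 1304 and 73.9% of 593 cells. In cells thinned to 2000 UMIs and outside the class, Cks2 was seen in 12.7% (10.1 to 15.6) of cells with and 12.2% (11.1 to 13.2) of cells without a Cenpa UMI in anti-PD1, and in 5.49% (2.95 to 9.20) and 6.09% (5.28 to 6.99) in anti-IgG. The intervals overlap within each library.

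The higher level of both genes was found in each of the 8 T cell gates. The ratio of Cks2 ran from 1.37 (1.14 to 1.65) in CD4 non-naive cells to 2.35 (1.80 to 3.09) in CD4 naive cells, and that of Cenpa from 1.29 (1.07 to 1.54) in CD4 non-naive to 2.06 (1.30 to 3.35) in NK receptor cells. CD4 naive cells, where few mitotic genes were seen, had 90.2 CPM of Cks2 in anti-PD1 and 38.4 CPM in anti-IgG, and 81.6 and 45.4 CPM of Cenpa. In B cells Cks2 had 22.4 CPM (9 UMIs) in anti-PD1 and 18.5 CPM (4 UMIs) in anti-IgG, with a ratio of 1.21 (0.337 to 5.36). Cenpa in B cells had 82.0 CPM (33 UMIs) and 37.1 CPM (8 UMIs), a ratio of 2.21 (1.002 to 5.54), close to the levels in T cells outside the mitotic-dense class. Among cells with no Cd3 UMI, endothelial cells had Cenpa at 29.0 CPM (5 UMIs) and 104 CPM (42 UMIs), a ratio of 0.280 (0.0864 to 0.706). All 20 mitotic genes together stood at 244 and 1214 CPM in these 34 and 47 endothelial cells, of which 1 and 4 were mitotic-dense, so the value does not give the level of non-dividing cells. The part of free RNA in the Cenpa values was not tested.

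**Figure D3:**
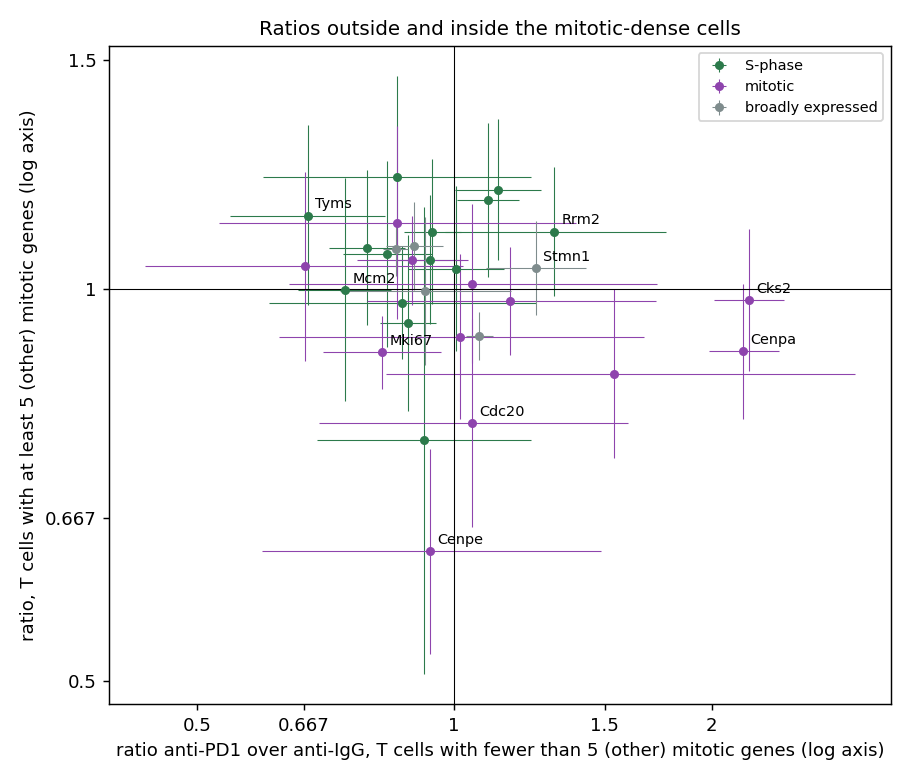
Ratio of CPM, anti-PD1 over anti-IgG, in T cells outside (horizontal, log axis) and inside (vertical, log axis) the mitotic-dense class, for the 31 genes with at least 50 UMIs in each; bars are 95% counting intervals. Cks2 and Cenpa lie far to the right near 2.2 outside and close to 1 inside, and Cenpe lies low at 0.630 inside.

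Inside the mitotic-dense cells Cenpe was lower and most members lay near the background of all genes. The S-phase genes stood at 3752 CPM in anti-PD1 and 3494 CPM in anti-IgG, a ratio of 1.07 (1.03 to 1.11), and the mitotic genes at 5912 and 6299 CPM, a ratio of 0.938 (0.912 to 0.965). Of the 39 members 1 was 1.5-fold lower, Cenpe, and 0 were higher, where 6.87% and 5.18% of 6989 genes were. The intervals of 7 members lay below 1 (13.7% of all genes) and of 4 above 1 (9.59% of all genes). Those below were Mki67, Ccnb1, Ccnb2, Cdc20, Cenpe, Cenpf and Hmgb2, and those above were Pcna, Rrm1, Tk1 and Tubb5. Both shares of the members were near those of all genes. The median log2 ratio in this class was -0.07 over the mitotic genes, 0.10 over the S-phase genes and -0.06 over all genes. Ratios above 1 were found for 7 of the 20 mitotic and 10 of the 14 S-phase genes.

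Cenpe, the kinesin that moves chromosomes to the spindle equator, had 126 CPM in anti-PD1 and 200 CPM in anti-IgG mitotic-dense cells (0.630, 0.525 to 0.754), and over all T cells 260 UMIs (11.7 CPM) against 322 UMIs (18.2 CPM), a ratio of 0.642 (0.543 to 0.758). Cenpf, a large kinetochore protein, had 217 and 322 CPM in mitotic-dense cells (0.674, 0.586 to 0.774), and over all T cells 394 UMIs (17.7 CPM) against 478 UMIs (27.0 CPM), a ratio of 0.656 (0.572 to 0.751). With the gates weighted alike in both libraries the ratios over all T cells were 0.680 for Cenpe and 0.687 for Cenpf, and neither passed 1.5-fold. Cenpf also missed it with cells of other markers kept (0.670), with at least 1000 genes per cell (0.6672, just above the limit) and thinned to 1000 UMIs (0.692, 0.451 to 1.06). Few cells carry these values: 120 anti-PD1 and 111 anti-IgG cells had a Cenpe UMI, and 111 and 97 a Cenpf UMI. Mki67 had 103 CPM in anti-PD1 and 120 CPM in anti-IgG T cells (0.855, 0.805 to 0.907). Top2a, the topoisomerase that untangles sister chromatids, had 83.5 and 83.7 CPM (0.998, 0.931 to 1.07). Ccnb1, cyclin B1, had 4.54 and 6.22 CPM (0.730, 0.552 to 0.965), and Cdc20 13.04 and 16.3 CPM (0.801, 0.678 to 0.946). Ccna2 (20.1 and 19.9 CPM), Birc5 (33.9 and 36.0 CPM) and Bub1 (4.54 and 5.60 CPM) had ratios of 1.01 (0.878 to 1.17), 0.943 (0.847 to 1.05) and 0.811 (0.609 to 1.08).

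The remaining mitotic genes, Cdk1, Ccnb2, Ube2c, Kif11, Aurkb, Plk1, Nusap1, Tpx2 and Spc24, had ratios of 0.837 to 1.12 over all T cells, and of these the interval of Ccnb2 alone lay below 1. Cenpe, Cenpf and Mki67 have the longest transcripts of the 39 genes, at 7910, 11130 and 10061 bases, while Cks2 has the shortest at 692 bases. Over all genes in 10 classes of transcript length the median log2 ratio ranged from -0.12 to -0.06, and it was -0.12 in both the shortest and the longest class. The part of transcript length in the ratios of single genes was not tested. Of the broadly expressed genes Stmn1, which binds free tubulin, had 83.8 CPM in anti-PD1 and 79.0 CPM in anti-IgG T cells (1.06, 0.989 to 1.14), and Tubb5, a beta tubulin, 499 and 546 CPM (0.913, 0.889 to 0.939). Reads of Tuba1b, Tubb5 and Hmgb2 can be shared with near-identical relatives, so these values are uncertain.

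The number of mitotic genes per cell, with Cks2 and Cenpa among them, shifted in its low range and not in its high range. Exactly 1 mitotic gene was seen in 33.2% of anti-PD1 and 24.5% of anti-IgG T cells, a ratio of 1.35 (1.25 to 1.47), and 3 or 4 in 2.88% and 1.97%, a ratio of 1.46 (1.10 to 1.96). At least 5 were seen in 3.26% (2.79 to 3.79) and 3.49% (2.92 to 4.12), a ratio of 0.936 (0.739 to 1.19). With Cks2 and Cenpa left out of the set, a choice made after their values were seen, the summed level of the other 18 turned to 461 CPM in anti-PD1 against 510 CPM in anti-IgG T cells, a ratio of 0.904. The ratio of 1.04 for the whole set thus rests on these 2 genes. Without them at least 3 mitotic genes were seen in 3.84% and 4.07% of T cells, a ratio of 0.944 (0.759 to 1.17). Cks2 itself was seen in 23.3% of anti-PD1 and 14.6% of anti-IgG T cells, and Cenpa in 26.1% and 15.8%. The shares with exactly 1 and with 3 or 4 genes are not given without these 2 genes, so that shift is not read as one of the whole set.

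**Figure D4:**
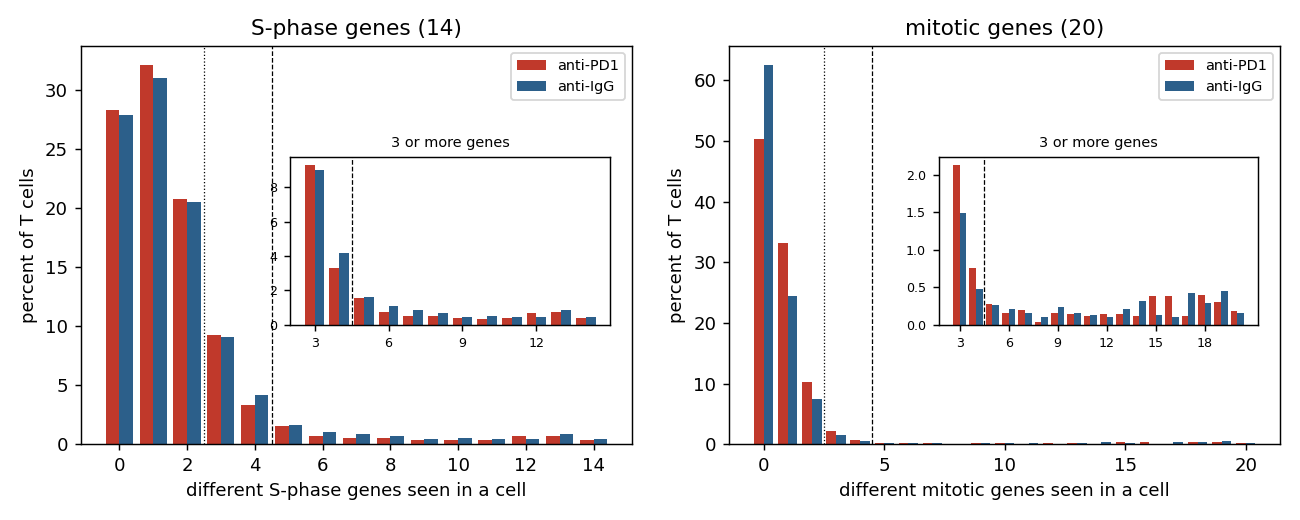
Percent of T cells by the number of different S-phase genes (left) and mitotic genes (right) seen in a cell, anti-PD1 left of anti-IgG in each pair, with an inset for 3 or more; the dotted and dashed lines mark the cuts at 3 and 5 genes. The libraries differ at 0, 1 and 2 mitotic genes, where 50.4% of anti-PD1 cells show none, and lie close together from 5 genes on.

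Most mitotic-dense cells also carried replication transcripts. At least 3 S-phase genes were seen in 153 of the 163 anti-PD1 and 115 of the 131 anti-IgG mitotic-dense cells, which leaves 10 and 16 cells with fewer, a ratio of their shares of T cells of 0.470 (0.191 to 1.10). Cells with at least 8 S-phase genes but under 5 mitotic genes numbered 47 and 56, a ratio of 0.631 (0.419 to 0.947). Of cells with at least 3 genes of either set, 69.7% of anti-PD1 and 74.8% of anti-IgG cells had the S-phase set only, a ratio of 0.931 (0.834 to 1.04). These are shares of cells by genes seen and not phases of the cycle.

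Mitotic genes were seen often in regulatory, non-naive and gamma-delta T cells and rarely in naive cells. At least 3 mitotic genes were seen in 14.1% of anti-PD1 and 11.6% of anti-IgG Treg cells (Foxp3), the highest share of the 8 gates, in 8.99% and 7.86% of CD4 non-naive cells, and in 8.89% and 6.06% of CD8 non-naive cells. The type 17 gamma-delta gate had 8.06% and 7.30% and the NK receptor gate 7.98% and 5.77%. Naive cells set the low end with 0.685% and 0.781% of CD8 naive cells (1 cell in each library) and 0.659% and 0.721% of CD4 naive cells, as did B cells with 0.735% (1 of 136 cells) and 0 of 56 cells. Cks2 and Cenpa add to these shares. Without them, a choice made after their values were seen, the shares were 7.56% and 7.44% in Treg cells. They were 6.18% and 6.11% in CD4 non-naive, 6.25% and 4.65% in CD8 non-naive and 4.09% and 4.86% in gamma-delta 17 cells. Median depth was 3444 and 3488 UMIs in CD4 naive and 4827 and 4579 UMIs in Treg cells. Thinned to 2000 UMIs, the shares were 5.15% and 5.33% in Treg, 5.88% and 5.40% in CD4 non-naive, 5.33% and 3.96% in CD8 non-naive and 0.174% and 0.379% in CD4 naive cells. At equal depth naive cells thus stayed lowest, while Treg cells no longer stood above the other gates.

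**Figure D5:**
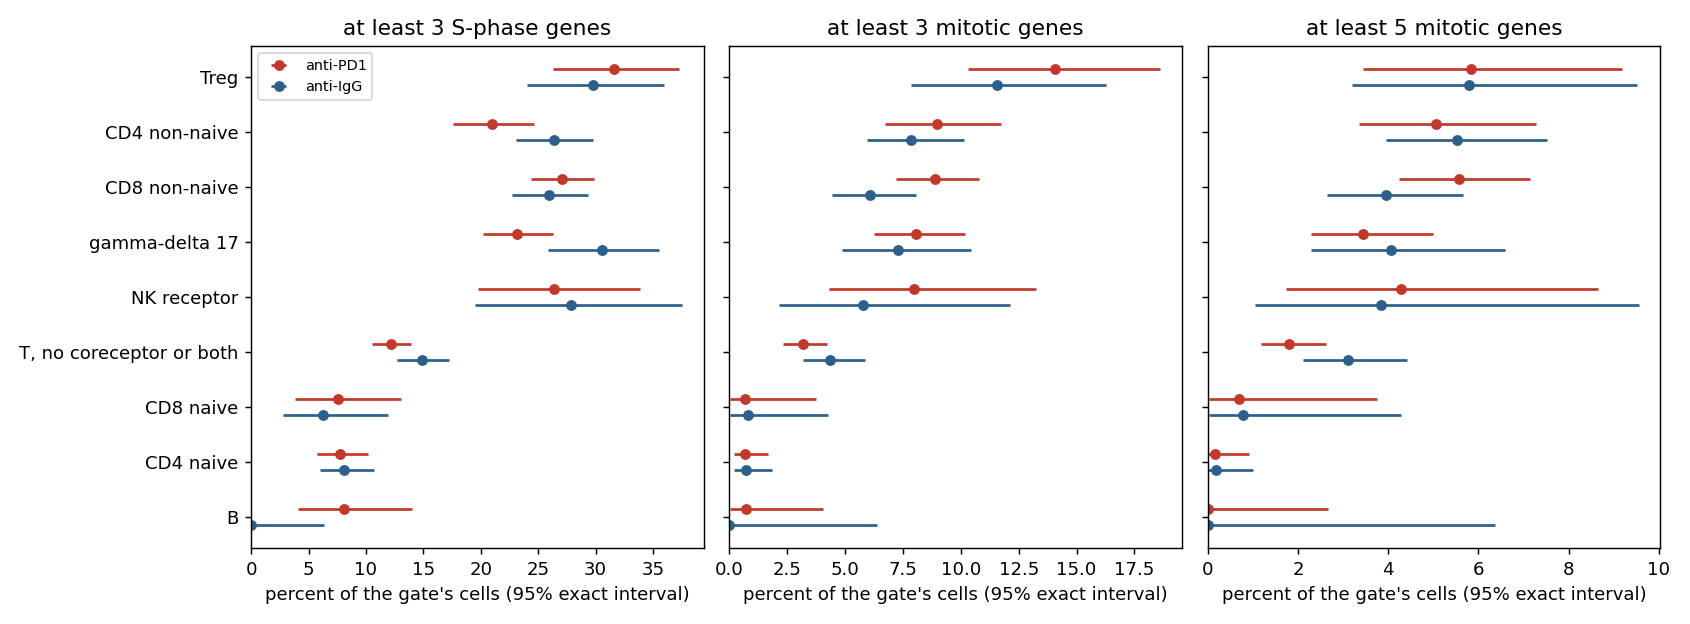
Percent of cells in each gate with at least 3 S-phase genes (left), at least 3 mitotic genes (middle) and at least 5 mitotic genes (right), anti-PD1 above anti-IgG in each pair, with 95% exact intervals and B cells at the bottom. Treg cells are highest for mitotic genes at 14.1% and 11.6%, naive cells and B cells are near 0, and most pairs overlap.

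CD8 non-naive cells carried more mitotic transcripts in the anti-PD1 library, and CD4 non-naive cells fewer, a difference between gates that was not tested. The 20 mitotic genes stood at 914 CPM in anti-PD1 and 613 CPM in anti-IgG CD8 non-naive cells, a ratio of 1.49 (1.42 to 1.57), and at 944 and 1106 CPM in CD4 non-naive cells, a ratio of 0.854 (0.808 to 0.902). T cells with no coreceptor or both had 464 and 550 CPM (0.844, 0.796 to 0.895). The share of cells with at least 3 mitotic genes had a ratio of 1.47 (1.01 to 2.16) in CD8 non-naive, 1.14 (0.759 to 1.72) in CD4 non-naive and 0.727 (0.468 to 1.13) in cells with no coreceptor or both. In CD8 non-naive cells the interval included 1 when thinned to 2000 UMIs (1.34, 0.829 to 2.23), at a cut of 5 genes (1.41, 0.883 to 2.30) and without Cks2 and Cenpa (1.34, 0.870 to 2.11). Of the mitotic-dense cells 57 of 163 in anti-PD1 (35.0%) were CD8 non-naive, against 28 of 131 in anti-IgG (21.4%), while CD4 non-naive cells were 27 (16.6%) and 38 (29.0%). The level ratios of these 3 gates therefore rest on 26 to 57 mitotic-dense cells in each gate and library. Thinning to 2000 UMIs gave level ratios of 1.58, 0.888 and 0.963 in the 3 gates.

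Single genes in these gates followed the sums. In CD8 non-naive cells 18 of the 20 mitotic genes had a ratio above 1, with 14 intervals above 1, and 26 of the 39 members had such an interval, where 14% of 9028 genes did. In CD4 non-naive cells 15 of 20 mitotic genes were below 1, with 7 intervals below 1, and 11 of the 39 members had such an interval, where 18.1% of 8202 genes did. Most mitotic genes lie together in the same few cells, for CD8 non-naive cells 57 and 28 mitotic-dense ones. Their intervals therefore repeat 1 another, and these counts add nothing to the sums. Mki67 had 157 CPM in anti-PD1 and 107 CPM in anti-IgG CD8 non-naive cells (1.47, 1.31 to 1.66), and 168 and 219 CPM in CD4 non-naive cells (0.765, 0.673 to 0.870). Top2a had 128 and 86.7 CPM in CD8 non-naive cells (1.47, 1.29 to 1.68) and 128 and 145 CPM in CD4 non-naive cells (0.886, 0.761 to 1.03). Cenpe had 18.7 and 19.4 CPM in CD8 non-naive cells (0.966, 0.707 to 1.32) and 16.8 and 37.8 CPM in CD4 non-naive cells (0.444, 0.298 to 0.648). It had 7.71 and 17.1 CPM in T cells with no coreceptor or both (0.452, 0.298 to 0.677), and in none of the other 6 T cell gates did its interval leave out 1. The type 17 gamma-delta cells had at least 3 S-phase genes in 23.1% of anti-PD1 and 30.5% of anti-IgG cells, a ratio of 0.758 (0.596 to 0.967). Thinned to 2000 UMIs, the shares were 6.23% (4.62 to 8.20) and 7.34% (4.85 to 10.6), which overlap and lie near the 6.80% of anti-PD1 B cells.

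Cells with a transcript of Pdcd1, the gene of PD-1, showed more mitotic genes at full depth when all T cells were pooled, but not in every gate, and at equal depth the intervals overlapped. At least 3 mitotic genes were seen in 10.4% of anti-PD1 and 10.7% of anti-IgG T cells with a Pdcd1 UMI, and in 4.70% and 4.05% of those without. In the gamma-delta 17 gate, which held 592 of the 1272 anti-PD1 cells with Pdcd1, the anti-PD1 shares were 7.77% with and 8.95% without, and in CD4 non-naive cells 8.44% and 9.21%. These cells were deeper, with medians of 4512 and 4723 UMIs against 3524 and 3812. Thinned to 2000 UMIs, the shares were 3.95% (2.75 to 5.48) and 4.41% (2.78 to 6.60) with Pdcd1 and 3.38% (2.82 to 4.01) and 3.18% (2.58 to 3.87) without. Thinning also took Pdcd1 UMIs away: cells with Pdcd1 fell from 1272 to 860 in anti-PD1 and from 798 to 499 in anti-IgG. Cells without went from 3725 to 3733 and from 2960 to 2988, although shallower cells were left out. Some cells with Pdcd1 thus moved to the group without, which can narrow the contrast. The overlap is therefore not read as an effect of depth, whose part was not tested.

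Other genes of the pathway, from lists that include no member, gave few differences. Of 34 other G1/S genes 2 were 1.5-fold higher and 0 lower, and of 65 other G2/M genes 1 was higher and 2 lower. The same rule took 5.85% of all genes as higher and 9.06% as lower. The median log2 ratios were -0.04 and -0.08. Orc1, the largest subunit of the origin recognition complex, had 5.21 CPM in anti-PD1 and 2.03 CPM in anti-IgG T cells (2.56, 1.75 to 3.84), and Ccne2, cyclin E2, 6.29 and 3.50 CPM (1.80, 1.32 to 2.46). Mybl2, the B-Myb factor of late cycle genes, had 5.21 and 3.45 CPM (1.51, 1.10 to 2.10). Kif20b, a kinesin of cytokinesis, had 9.53 and 17.7 CPM (0.537, 0.449 to 0.641), and Sgo1, which guards sister cohesion, 2.43 and 3.96 CPM (0.613, 0.422 to 0.888). No gene of the 6 measured in the cyclin D and CDK4/6 list was called in either direction.

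The genes that brake the cycle were described by a list of their own. Of 7 CDK inhibitor genes 2 were called higher and 0 lower, where 5.85% and 9.06% of all genes were. The median log2 ratio was 0.13, and the list had no single direction. Cdkn1b, the highest of the list in CPM, had 279 CPM in anti-PD1 and 330 CPM in anti-IgG T cells (0.847, 0.817 to 0.878). Cdkn2d had 69.9 and 85.2 CPM (0.820, 0.763 to 0.881) and Cdkn2c 15.6 and 12.8 CPM (1.22, 1.03 to 1.45). The intervals of Cdkn2a and Cdkn1c included 1. Cdkn1a, the p21 inhibitor, had 86.4 CPM (1921 UMIs) in anti-PD1 and 16.7 CPM (296 UMIs) in anti-IgG T cells, a ratio of 5.16 (4.56 to 5.85). In mitotic-dense cells its ratio was 3.44 (2.54 to 4.74) and outside them 5.55 (4.85 to 6.37). Cdkn2b, the p15 inhibitor, had 2.43 and 0.848 CPM (2.86, 1.59 to 5.46), from only 54 and 15 UMIs. Of 18 measured genes of the Rb, E2F and DREAM list 1 was called, Lin54, the MuvB subunit that binds CHR elements, with 37.1 CPM in anti-PD1 and 18.1 CPM in anti-IgG T cells (2.05, 1.80 to 2.34).

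The classes of cells can be set against the other G2/M list, which took no part in forming them. Summed over that list, cells with at least 3 genes of both sets stood at 6457 CPM in anti-PD1 (234 cells) and 6630 CPM in anti-IgG (165 cells), and cells with neither at 1046 and 1112 CPM. Cells with at least 3 mitotic but fewer than 3 S-phase genes stood at 1805 CPM in anti-PD1 (73 cells) and 4682 CPM in anti-IgG (40 cells). In the anti-PD1 library that class was thus nearer to cells with neither set, and in the anti-IgG library nearer to cells with both. The class was not made up alike: 10 of its 73 anti-PD1 and 16 of its 40 anti-IgG cells had at least 5 mitotic genes. The part of this in the gap was not tested.

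Genes most like the mitotic members were ranked by their level in T cells with at least 3 mitotic genes over cells with none, taking the lower of the libraries, over 8201 genes with at least 20 UMIs in the first group of each. The first 10 were Aspm, Hmmr, Esco2, Kif4, Shcbp1, Neil3, H2ac4, Nuf2, Bub1b and Cdkn3. Aspm, a spindle pole protein, had 69.6 CPM in anti-PD1 and 123 CPM in anti-IgG cells with mitotic genes, from 199 and 261 UMIs. Cells with none held 1 and 3 UMIs. Of the cells with mitotic genes 163 of 307 in anti-PD1 and 131 of 205 in anti-IgG were mitotic-dense, so these levels are not compared between the libraries. Of the first 40 genes, 21 are in the other G2/M list of 65 genes, 3 in the other G1/S list of 34 and 15 in none. E2f8 is in the Rb, E2F and DREAM list. Those in none include the histone genes H2ac4, H3c3, H1f5, H2ac10, H2bc3 and H2ac8, so the ranking is not limited to genes of mitosis.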

How the data were processed

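Droplet single-cell RNA libraries of 1 anti-PD1 and 1 anti-IgG group of mouse hearts were compared. The authors deposited unnormalized UMI counts for each called barcode. The file headers give Cell Ranger 7.1.0 as the program that wrote them. Cell Ranger 7.2.0 and Seurat 4.4.0 are the tools, and mm10 the build, listed per the submitters' processing notes. Barcodes begin like those of another kit version than the labelled one, so the transcript end that was read is uncertain. The 39 members, the gene lists and the tests were chosen with earlier results of these data known.

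From these counts, the cells kept had 300 genes and 500 UMIs or more, with no more than 10% of UMIs from mitochondrial genes. T cells had at least 1 Cd3 UMI and fewer than 3 UMIs of any other lineage's markers; B cells were gated by their markers without Cd3. T cells were then assigned in order to the gamma-delta 17, NK receptor, Treg, CD8 naive, CD8 non-naive, CD4 naive and CD4 non-naive gates, and the rest to a gate with no coreceptor or both. All 39 members were matched by symbol; 55 of 56 gate genes were matched by symbol and 1 by its gene ID. No doublet caller was run; leaving out cells above the 98th UMI percentile of their library was an alternative.

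UMIs were summed per library and gate and scaled to CPM. A ratio has an exact conditional 95% interval, a share a Clopper-Pearson interval, and both cover counting error only. A gene was called where at least 50 UMIs were summed over the libraries, the ratio was at least 1.5 or at most 0.667, and the interval left out 1. The class cuts were 3 and 5 different genes of a set. Thinning drew each cell down to 2000 UMIs without replacement and left out 404 anti-PD1 and 271 anti-IgG T cells that were shallower; 1000 UMIs was an alternative. Full values are given for called members, the 3 most and 3 least concentrated in cells with at least 3 mitotic genes, Mki67, Top2a, Pcna and the Mcm genes, called genes of each list, and the 10 genes most like the mitotic members. Promoters came from a RefSeq table (GRCm38.p6) that held 33 of the 39 members; Stmn1, Aurkb, Tpx2, Ccna2, Spc24 and Mcm4 have no entry in it. The code was tested on simulated counts and run in Python 3.11.15 with numpy 2.4.6, scipy 1.17.1, pandas 2.3.3 and matplotlib 3.10.9.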

Additional observations from a re-analysis of the deposited data

Results flagged for a closer look

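The summed level of the 20 mitotic genes lay on opposite sides of 1 in different T cell gates, with intervals that leave out 1, and the difference between gates was not tested because each antibody has 1 library. The ratio was above 1 in CD4 naive (1.73), CD8 naive (1.70), CD8 non-naive (1.49) and Treg cells (1.16). It was below 1 in NK receptor cells (0.736), in T cells with no coreceptor or both (0.844) and in CD4 non-naive cells (0.854). In the CD4 naive gate, Cks2 had 200 UMIs in anti-PD1 and 77 in anti-IgG cells, and Cenpa 181 and 91, while Mki67 had 5 and 16. All 20 genes together had 426 and 223 UMIs there. Cks2 and Cenpa thus made up most of the sum in both libraries, and its ratio does not describe the mitotic set as a whole. The CD8 naive sum was only 128 and 68 UMIs.

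The S-phase genes lay on opposite sides of 1 in the same way, also untested. Their ratio was above 1 in CD8 non-naive (1.18) and Treg cells (1.12), and below 1 in T cells with no coreceptor or both (0.770), NK receptor cells (0.886) and CD4 non-naive cells (0.934). Cells with Cd3 and markers of another lineage were kept out of the comparisons and numbered 355 in anti-PD1 and 234 in anti-IgG. At least 3 mitotic genes were seen in 19.7% and 17.1% of them, above the shares in T cells, at medians of 9511 and 11009 UMIs. The part of doublets in these cells was not tested.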

How the results depend on the processing

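Of 119 values under alternative settings, 102 lay within the counting interval of the value reported (or within 1.5 times a count); many of those intervals are wide. Of 108 alternative ratios, 12 lay on the other side of 1 from the value reported, and for 2 of these the interval reported had left out 1. Thinning to 2000 UMIs turned the ratio of the S-phase sum to 1.002 (527 CPM in anti-PD1, 526 CPM in anti-IgG), and keeping cells with markers of other lineages gave 0.935. The ratio of the mitotic sum was 1.12 thinned to 2000 UMIs, 1.16 thinned to 1000 UMIs, 1.07 with the same gate mix in both libraries, 1.11 with each cell weighted alike, and 0.904 without Cks2 and Cenpa, a setting chosen after seeing the data. Members past 1.5-fold numbered 2 with the same gate mix and 3 to 5 otherwise, against 4 reported. Over the settings Cks2 ranged from 1.63 to 2.11, Cenpa from 1.55 to 1.98, Cenpe from 0.323 to 0.680 and Cenpf from 0.566 to 0.692. The ratio of the share of T cells with mitotic genes was 0.936 at a cut of 5 genes, and in cells with no coreceptor or both it was 1.18 at a cut of 2 genes. By gate, 8 of 48 such ratios crossed 1, and they ranged from 0.460 to 1.70 in CD4 naive, 0.841 to 1.53 in CD8 naive, 1.12 to 2.5 in NK receptor, 0.841 to 1.18 in gamma-delta 17, 0.965 to 1.30 in Treg and 0.914 to 1.25 in CD4 non-naive cells. Over all T cells the ratio was 0.944 without Cks2 and Cenpa. The mitotic level in CD8 non-naive cells kept a ratio of 1.44 to 1.68, in CD4 non-naive cells 0.774 to 0.888, and in cells with no coreceptor or both 0.636 to 0.963, where thinning to 2000 UMIs left an interval that includes 1; these settings too were chosen after seeing the data. The causes were not tested. No paired analysis was possible because each antibody has 1 library, and for the same reason none could be left out. Spread between animals is unknown.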

Other observations

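Outside the mitotic-dense class, 7 other G2/M genes were called higher in the anti-PD1 library and 1 lower, where 6.05% and 9.03% of all genes were. Only 36 of the 65 listed reached 50 UMIs there, and a gene at low level passes this minimum more easily where it is high, so nothing is read from the count. Lmnb1, lamin B1 of the nuclear envelope, had 3811 UMIs in anti-PD1 and 1892 in anti-IgG (1.60, 1.51 to 1.69). Ndc80, of the kinetochore complex that binds microtubules, had 331 and 151 UMIs (1.74, 1.43 to 2.12), and Kif23, a kinesin of cytokinesis, 290 and 147 (1.56, 1.28 to 1.92). Inside the class their ratios were 1.07 (0.994 to 1.16), 0.844 (0.680 to 1.05) and 1.05 (0.868 to 1.27). The others higher outside were Ncaph, Ckap2, Cenpm and Ccnf, and the lower one was Ect2, a regulator of cytokinesis, with 32 and 50 UMIs.

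Among 33 other G1/S genes with enough UMIs outside the class, 3 were higher (Orc1, Nasp and Ccne2) and 2 lower (Cdc25a and Dscc1), which is near the shares of all genes called there. Nasp, a histone chaperone, had 1620 UMIs in anti-PD1 and 841 in anti-IgG (1.53, 1.40 to 1.66). Cdc25a, a phosphatase that activates Cdk complexes, had 250 and 300 UMIs outside (0.660, 0.556 to 0.784), and 105 and 61 inside the class (1.43, 1.03 to 1.99), where its ratio lay on the other side of 1; the difference between the classes was not tested.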
